A study of Homo sapiens with 12 samples.

Results

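The alpha-arrestins are adaptor proteins with an arrestin fold that carry PPxY motifs and through them recruit NEDD4-family ubiquitin ligases to membrane cargo. TXNIP, the best known of them, binds and inhibits thioredoxin and promotes the removal of the glucose transporter GLUT1 from the cell surface. Its gene is a classic target of the glucose-sensing factors MondoA and ChREBP, and in liver cells TXNIP thereby ties glucose uptake and redox state to nutrient supply. Transcripts of TXNIP, ARRDC1, ARRDC2, ARRDC3 and ARRDC4 were followed in the human hepatocellular carcinoma line HepG2 during insulin stimulation. These 5 genes were taken by symbol from the 26364 genes of the count table, and all 5 passed the filter on low counts that left 13852 genes for testing. They were chosen on the time courses given here, so their levels and changes are a description, no p-value of a member is reported, and nothing is read from how many of them passed a threshold.

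RNA-seq libraries had been made at 0, 5, 10, 30 and 240 min after insulin, with 2 replicates per time and 10 libraries in all. The study asked how the insulin receptor (IR) is distributed in cells, and the series also holds 1 IR ChIP-seq library with its input. The labels describe culture in EMEM followed by 3 nM insulin in EMEM with albumin, and no genetic change in any group. Their protocol text repeats a 5 min treatment for every RNA library, 0 min included, so the times are those of the sample titles. No library kept for 240 min without insulin was used here, so insulin and the handling that went with it cannot be told apart. Per the study's methods the RNA-seq was a single experiment on biologically independent samples. The labels' texts differ on whether a low dose of insulin and a washout came before the stimulation, so the insulin history of the 0 min cells is not settled.

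Libraries held 18347109 to 45005769 reads counted on genes, and ERCC spike-in transcripts took 1.59% to 2.36% of all counts, the most in 10 min replicate 2. All 9 hepatocyte markers examined were present in every library, with albumin at 13900 to 20400 CPM (counts scaled to each TMM-normalised library size). Of 6 markers of other cell types, PTPRC had 0 counts throughout and CD3E, COL1A2 and KRT5 had at most 2 counts per library, while PECAM1 reached 3.00 CPM and CD68 lay at 36.3 to 45.3 CPM. The members were covered by 114 to 12413 counts per library, the fewest for ARRDC2 and the most for TXNIP.

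The promoters of the members differed in the motifs that glucose- and insulin-regulated factors are known to read. MondoA and ChREBP bind as partners of MLX to pairs of E-box-like sites, and FOXO factors, which insulin signalling keeps out of the nucleus, bind the forkhead core GTAAACA. RefSeq gave 8 start sites for the 5 genes, and the 250 bases before each were found once in hg19. Stretches with motif matches are shown for TXNIP and ARRDC4, the glucose-regulated pair of the family, and for ARRDC3. Every motif match is in capitals, including the spacer of the paired sites. The ARRDC4 stretch holds a single E-box, CACGTG, and no forkhead core. It also lacks a pair of CACGNG sites 5 bases apart in the same direction, the only paired form searched. The TXNIP stretch (chr1:145438340-145438429, plus strand, positions -150 to -61 from the start site) and the ARRDC4 stretch (chr15:98503718-98503873, plus strand, positions -215 to -60) lie upstream of their genes and overlap no annotated exon of them. The ARRDC3 stretch (chr5:90675925-90675954, minus strand, positions -40 to -11 from the second start site) overlaps 1 annotated exon of that gene.
TXNIP: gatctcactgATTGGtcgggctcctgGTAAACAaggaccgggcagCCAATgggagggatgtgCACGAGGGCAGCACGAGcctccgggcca
ARRDC4: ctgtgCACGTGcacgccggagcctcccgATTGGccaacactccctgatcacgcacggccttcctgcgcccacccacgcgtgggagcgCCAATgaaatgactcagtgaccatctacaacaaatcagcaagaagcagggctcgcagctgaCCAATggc
ARRDC3: agcccggcactTGTTTACcacggcgcggcc

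In the TXNIP stretch, a pair of CACGNG sites 5 bases apart ran from position -88 to -72. Such a pair, with both sites in the same direction, was searched on both strands. It stood in 16 of 35116 RefSeq promoter windows (0.0456%) and in 1 of the 8 windows of the members. A forkhead core stood at positions -124 to -118 of TXNIP, and the same core on the opposite strand, TGTTTAC, stood at -29 to -23 from the second start site of ARRDC3. That start site lies 3235 bases into the gene, and the window of the first ARRDC3 start site held no forkhead match. The forkhead core was present in 2.98% of all windows. The E-box CACGTG of ARRDC4, at -210 to -205, was shared by 6.34% of all windows. CCAAT boxes, the sites of the factor NF-Y, occurred in 5 of the 8 windows, 1 for each gene, and in 32.0% of all windows, with 3 in ARRDC4 and 2 in the first window of TXNIP. The cAMP response element TGACGTCA was in none of the 8 windows and in 1.65% of all windows. None of the searched motifs overlapped another in these windows. The E-box and forkhead searches were planned, and the other 3 motifs were chosen after the windows had been read. A match is a description of the letters and not of binding.

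**Figure D1:**
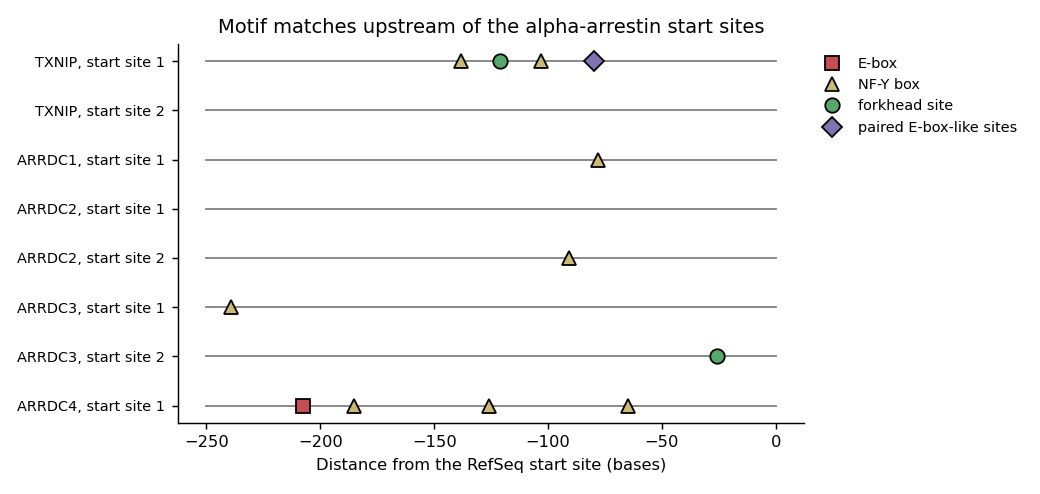
Motif matches in the 250 bases before each of the 8 RefSeq start sites, with the distance from the start site in bases on the horizontal axis and 1 line per start site. TXNIP start site 1 holds the paired sites and a forkhead core, ARRDC4 the E-box, and ARRDC3 start site 2 a forkhead core.

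On the scale of TPM, which corrects for transcript length and so lets genes be compared, TXNIP was by far the most abundant member. At 0 min TXNIP had 224 ± 12.2 TPM (SD, n = 2), ARRDC3 35.1 ± 1.77, ARRDC4 20.7 ± 2.18, ARRDC1 18.7 ± 0.396 and ARRDC2 6.27 ± 0.209. ARRDC4 and ARRDC1, neighbours in this order, differed by less than the SD of ARRDC4, and the other steps were larger than the SDs. The summed level of the 5 genes was 296.0 and 314.1 TPM in the 0 min libraries and 200.8 and 231.1 TPM in the 240 min libraries, where every value was lower than in the 8 earlier libraries. The share of TXNIP in that sum was 73.4% at 0 min and 66.2% at 240 min. Meanwhile the share of ARRDC3 was 11.6%, 15.8% and 8.96% at 0, 10 and 240 min, and that of ARRDC4 was 6.79% at 0 min but 12.9% at 240 min. At 240 min ARRDC4, at 27.8 ± 1.04 TPM (SD, n = 2), stood above ARRDC3, at 19.3 ± 1.07, in reverse of their order at 0 min.

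**Figure D2:**
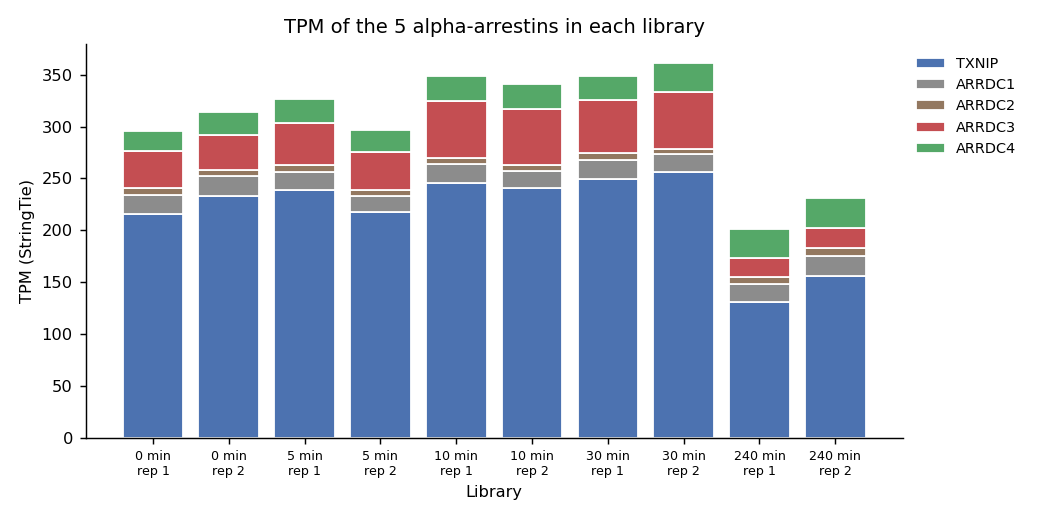
TPM of the 5 alpha-arrestins stacked for each of the 10 libraries, with TPM on the vertical axis from 0. TXNIP makes up 65.1% to 74.1% of each bar, and the 240 min bars are the lowest, at 200.8 and 231.1 TPM.

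TXNIP (chromosome 1, 145438438 to 145442628 in hg19, plus strand) moved little over the first 30 min and was lower at 240 min. Its replicates had 261.6 and 278.7 CPM at 0 min, 281.5 and 261.8 after 5 min, 292.0 and 292.5 after 10 min, 298.1 and 299.0 after 30 min, and 154.2 and 179.7 after 240 min. Both 240 min libraries lay below all 8 others, and both libraries at 10 and at 30 min lay above both at 0 min. The log2 fold change against 0 min at 5, 10 and 30 min was 0.0073, 0.11 and 0.14, with an SE of 0.060 each. Scaled on the ERCC transcripts instead, the values at 5 and 10 min were of the opposite sign, -0.074 and -0.21, and that at 30 min was 0.014. At 240 min the log2 fold change was -0.70 (SE 0.061), or 0.616 times the level of 0 min, and it was -0.82 with ERCC scaling. In bulk libraries, fewer cells with a transcript and fewer copies of it per cell cannot be told apart.

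ARRDC3 (chromosome 5, 90664541 to 90679149, minus strand), which is linked to the trafficking of integrin beta4, had the widest range of the family. It had 61.76 and 56.78 CPM at 0 min, 68.13 and 62.70 after 5 min, 92.04 and 91.92 after 10 min, 87.01 and 88.89 after 30 min, and 30.86 and 32.39 after 240 min. In the order of its mean levels, 240, 0, 5, 30 and 10 min, no time overlapped its neighbour. The mean at 10 min was 2.91 times that at 240 min. Against 0 min the log2 fold change was 0.15 (SE 0.057) after 5 min, 0.64 (SE 0.056) after 10 min and 0.58 (SE 0.056) after 30 min. After 240 min it was -0.90 (SE 0.062), or 0.535 times the level of 0 min. Ranked among the 13852 tested genes, the change of ARRDC3 was the 117th from the highest at 10 min, the 216th at 30 min and the 215th from the lowest at 240 min. With ERCC scaling its values for 10 and 30 min were 0.31 and 0.44, and the value for 240 min was -1.03. The ERCC share of the 10 min libraries was 1.73% and 2.36%, against 1.59% in both 0 min libraries, and ERCC scaling lowered the median of all tested genes at 10 min to -0.326.

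ARRDC4 (chromosome 15, 98503933 to 98517068, plus strand), the closest glucose-regulated relative of TXNIP, was higher at 240 min, when TXNIP and ARRDC3 were lower. Its replicates had 32.01 and 36.69 CPM at 0 min, 36.26 and 34.03 after 5 min, 39.27 and 39.31 after 10 min, 38.30 and 46.19 after 30 min, and 44.10 and 45.48 after 240 min. All 6 libraries from 10 min on lay above both 0 min libraries, and the 30 min libraries overlapped those of 10 and of 240 min. The log2 fold change at 5, 10, 30 and 240 min was 0.022, 0.18, 0.28 and 0.37, with SEs of 0.080 to 0.081, and the last value is 1.29 times the level of 0 min. With ERCC scaling these values were -0.051, -0.13, 0.16 and 0.26, so the sign at 5 and 10 min depended on the scaling. As single libraries were left out, the value at 30 min ran from 0.14 to 0.41 and that at 240 min from 0.28 to 0.48.

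ARRDC1 and ARRDC2 moved little. ARRDC1 (chromosome 9, 140500096 to 140509812, plus strand), which is linked to the budding of vesicles from the plasma membrane together with TSG101, lay between 10.56 and 12.56 CPM in the 10 libraries. Its times overlapped each neighbour in the order of their means, and its highest mean was 1.12 times its lowest. Its log2 fold changes ran from -0.15 (SE 0.10) at 5 min to -0.064 (SE 0.10) at 30 min. ARRDC2 (chromosome 19, 18111941 to 18124911, plus strand), the least studied of the 5, had 6.681 and 6.264 CPM at 0 min, 5.392 and 5.963 after 10 min, and 7.076 and 7.414 after 240 min. The 240 min libraries of ARRDC2 lay above the 8 others, with a log2 fold change of 0.17 (SE 0.12). This change did not pass an adjusted p of 0.05 in edgeR, and it was 0.048 with ERCC scaling. ARRDC2 was covered by 114 to 279 counts per library.

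**Figure D3:**
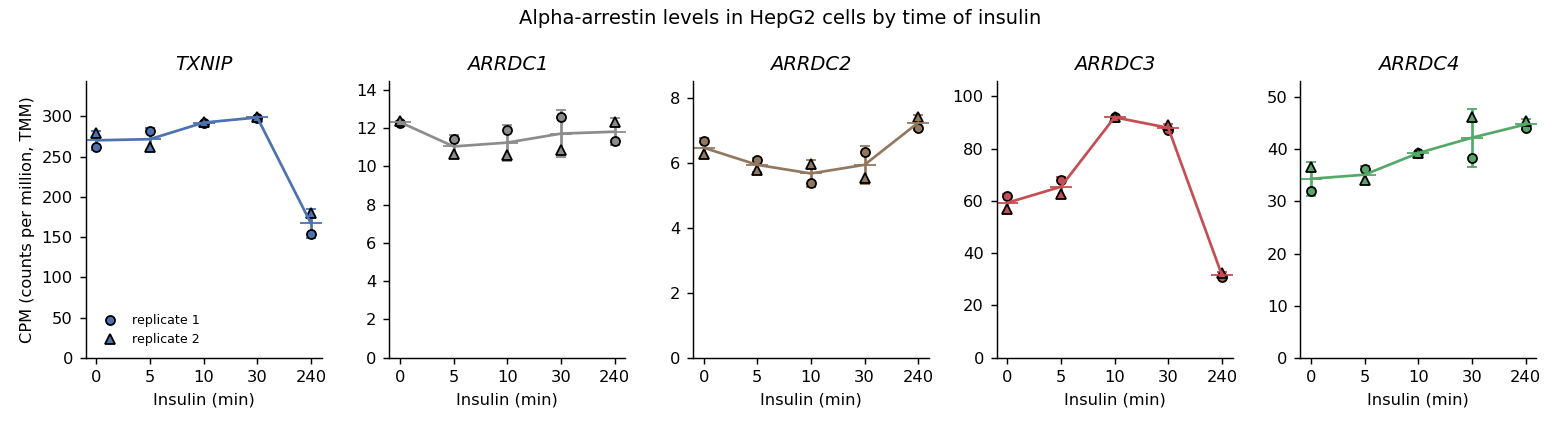
CPM of each alpha-arrestin in each library against the time of insulin in min (times evenly spaced, vertical axes from 0 and different for each gene), with symbols for the replicates and bars for the mean ± SD of 2 libraries. TXNIP and ARRDC3 are lowest at 240 min, at means of 167.0 and 31.62 CPM, while ARRDC4 is highest there at 44.79 CPM.

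At 5 min 0 of the 5 members passed an adjusted p of 0.05 in edgeR's quasi-likelihood test, as did 0% of all tested genes in either direction. DESeq2 and limma on log2(TPM + 1) also called 0 at that time. At an unadjusted p under 0.05 there were 1, 2, 3 and 3 members at 5, 10, 30 and 240 min, beside 14.3%, 5.13%, 8.12% and 48.7% of all tested genes. At 10 min 1 member, ARRDC3, was called higher, beside 0.0433% of all tested genes called higher and 0.0938% called lower. At 30 min ARRDC3 again was the 1 member called higher, beside 0.188% of all tested genes, with 0.144% called lower. At 240 min ARRDC4 was called higher and TXNIP and ARRDC3 lower, beside 20.6% of all tested genes called higher and 20.4% called lower. With ERCC scaling, TXNIP and ARRDC3 were still called at 240 min. ARRDC4 at 240 min and ARRDC3 at 10 and 30 min were not. Since the members were selected on these same changes, these counts are no support for them. The median log2 fold change of the 5 members was 0.00729, 0.112, 0.143 and -0.0647 at the 4 times, against medians of all tested genes between -0.00497 and 8.43e-05. With ERCC scaling the median of all tested genes at 5, 10, 30 and 240 min was -0.0831, -0.326, -0.134 and -0.119. Of the 13852 tested genes, that fit called 331 higher and 728 lower at 240 min in place of 2847 and 2829. At 10 min it called 0 higher and 20 lower in place of 6 and 13, and at 30 min 2 and 2 in place of 26 and 20.

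**Figure D4:**
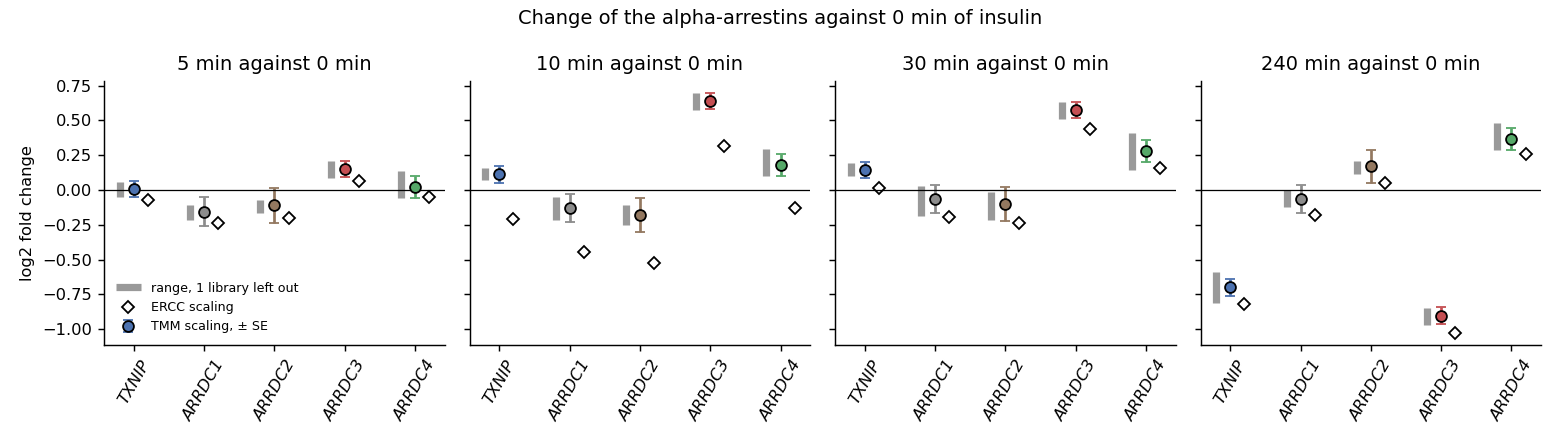
Log2 fold change of the 5 alpha-arrestins against 0 min at each later time, as filled points with bars of ± SE (TMM scaling), open diamonds (ERCC scaling) and grey bars for the range with each of the 10 libraries left out in turn. ARRDC3 is at 0.64 at 10 min and -0.90 at 240 min, and every diamond lies below its filled point.

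The genes that work with the alpha-arrestins were then examined from 7 lists of 46 genes, of which 39 passed the filter on low counts. The lists were chosen with earlier results of these data known, so their calls and p-values are a description and no independent support. Of the listed genes not tested, ARRDC5, the remaining alpha-arrestin, and the visual arrestins SAG and ARR3 had 0 counts in every library. At 5 and 10 min 0 of the 39 genes were called by edgeR, with 5 and 3 at an unadjusted p under 0.05, and DESeq2 and limma on log2(TPM + 1) called 0 at both times. At 30 min 1 gene was called, KLF10, a glucose-responsive transcriptional repressor, from 36.10 and 41.02 CPM at 0 min to 48.17 and 52.46 CPM. Its log2 fold change was 0.37 (SE 0.073, adjusted p = 0.0284, edgeR), and it was not called without 0 min replicate 1, at 0.29, without 30 min replicate 2, at 0.31, or with ERCC scaling, at 0.25. At 240 min 13 genes were called higher and 12 lower, with a median over the 39 of -0.0621 against -0.00257 over all tested genes, beside the 20.6% and 20.4% of all tested genes called higher and lower. DESeq2 called 20 of the 39, limma on log2(TPM + 1) 21, and the fit with ERCC scaling 8, with 4 higher and 4 lower. Of all 13852 tested genes, DESeq2 called 2164 higher and 2274 lower at 240 min, limma 2783 and 1801, and ERCC scaling 331 and 728. All 25 called values kept their sign under ERCC scaling. Of the 25, 14 were called whichever of the 10 libraries was left out, and the other 11 lost the call without at least 1 library. MLXIP and SMURF2 were called in 5 of the 9 alternatives besides ERCC scaling and left-out libraries, MLXIPL, FOXO1 and KLF10 in 6 of 9, and VPS26A, SLC2A4 and ARRDC3-AS1 in 7 of 9.

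Among the transcription factors, 4 of 5 fell at 240 min and none rose, with a median of -0.211, where 20.4% of all tested genes were called lower. Of the 4, FOXO3 alone was called in all 9 of the alternatives just named. FOXO3 went from 56.65 and 59.37 CPM to 49.89 and 47.06 CPM, a log2 fold change of -0.26 (SE 0.061, adjusted p = 0.00201, edgeR). MondoA (MLXIP), ChREBP (MLXIPL) and FOXO1 were called at -0.16, -0.21 and -0.22. MLXIP lost its call without 0 min replicate 1 (-0.14) or 240 min replicate 1 (-0.12), MLXIPL without 0 min replicate 2 (-0.20) or 240 min replicate 2 (-0.19), and FOXO1 without 0 min replicate 2 (-0.18). MLX, the partner of MondoA and ChREBP, was at -0.10 (SE 0.056, adjusted p = 0.155, edgeR) with both 240 min libraries below both 0 min libraries. With ERCC scaling none of these 5 factors was called.

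In the thioredoxin system, 2 of 5 genes rose at 240 min and none fell, with a median of 0.033. Of all tested genes, 20.6% were called higher and 20.4% lower. TXNRD1, the cytosolic reductase that recycles thioredoxin, went from 256.6 and 235.8 CPM to 401.8 and 397.4 CPM, and had a log2 fold change of 0.70 (SE 0.061, adjusted p = 4.59e-08, edgeR) that was 0.58 and still called with ERCC scaling. TXNRD3 rose by 0.38 (SE 0.095, adjusted p = 0.00318, edgeR), a call lost without 0 min replicate 2 (0.34), without 240 min replicate 1 (0.32) or with ERCC scaling (0.26). Thioredoxin itself, TXN, the protein that TXNIP binds, had 135.1 and 125.0 CPM at 0 min and 128.8 and 136.9 CPM at 240 min, and its log2 fold change was 0.033 (SE 0.054, adjusted p = 0.660, edgeR). Its groups overlapped.

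Of the other arrestins and arrestin-like genes, 1 rose and 1 fell at 240 min among 5 tested, with a median of 0.0434. The shares of all tested genes were 20.6% called higher and 20.4% called lower. ARRB1, which encodes beta-arrestin 1, fell from 49.60 and 47.26 CPM to 34.10 and 31.34 CPM, a log2 fold change of -0.56 (SE 0.064, adjusted p = 1.16e-06, edgeR) that stayed past the threshold with ERCC scaling at -0.68. Its close relative ARRB2 had 43.94 and 42.55 CPM at 0 min and 46.50 and 42.22 CPM at 240 min, a log2 fold change of 0.043 (SE 0.063). The difference between ARRB1 and ARRB2 was not tested. VPS26A, an arrestin-fold subunit of retromer, was called at 0.13 (SE 0.047, adjusted p = 0.0279, edgeR), but not without any 1 of the libraries at 0 or 240 min, where it was 0.12 to 0.15, and not with ERCC scaling, at 0.016.

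The ubiquitin ligases of the NEDD4 type, which alpha-arrestins recruit, gave 1 rise and 3 falls at 240 min among 7 tested. Their median was -0.0734, and 20.6% of all tested genes were called higher and 20.4% lower. NEDD4 fell from 113.0 and 118.2 CPM to 88.67 and 89.50 CPM (log2 fold change -0.38, SE 0.058, adjusted p = 3.32e-05, edgeR), and ITCH from 230.8 and 229.6 CPM to 195.7 and 204.1 CPM (-0.20, SE 0.047, adjusted p = 0.00191, edgeR). SMURF1 rose from 45.79 and 49.15 CPM to 60.81 and 59.26 CPM (0.33, SE 0.062, adjusted p = 0.000268, edgeR). SMURF2 was called at -0.17, and not without 0 min replicate 1 (-0.18), 0 min replicate 2 (-0.16) or 240 min replicate 1 (-0.098). None of the 4 was called with ERCC scaling.

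Cargo and binding partners gave 4 rises and 2 falls at 240 min among 8 tested, with a median of 0.209. Beside them, 20.6% of all tested genes were called higher and 20.4% lower. SLC2A1, which encodes the glucose transporter GLUT1, went from 634.8 and 555.2 CPM to 755.7 and 949.2 CPM, a log2 fold change of 0.52 (SE 0.097, adjusted p = 0.000269, edgeR). This value was 0.39 and not called with ERCC scaling, and it ran from 0.34 to 0.67 as single libraries were left out. DDIT4, whose product REDD1 inhibits mTORC1 and forms a complex with TXNIP, rose from 12.25 and 10.62 CPM to 21.47 and 20.88 CPM (0.91, SE 0.092, adjusted p = 2.51e-07, edgeR). NOTCH1, a receptor whose degradation has been linked to ARRDC1, rose from 1.763 and 2.447 CPM to 3.838 and 4.838 CPM (0.97, SE 0.19, adjusted p = 0.000398, edgeR). TSG101, the ESCRT subunit that binds ARRDC1, fell from 79.25 and 81.06 CPM to 64.09 and 67.78 CPM (-0.28, SE 0.053, adjusted p = 0.000250, edgeR). The other fall was INSR, the insulin receptor gene, at -0.61 (SE 0.056, adjusted p = 8.32e-08, edgeR). DDIT4, NOTCH1 and INSR were still called with ERCC scaling, at 0.78, 0.87 and -0.72, and TSG101 was not, at -0.40. SLC2A4, which encodes GLUT4 and lay under 10 CPM, was called at 0.30, and not without 0 min replicate 1 (0.29), 0 min replicate 2 (0.31), 10 min replicate 2 (0.30) or 240 min replicate 2 (0.21). With ERCC scaling SLC2A4 was at 0.18 and was not called. ITGB4, which encodes integrin beta4, was at -0.19 (SE 0.094, adjusted p = 0.111, edgeR).

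Other genes known to respond to glucose gave 4 rises and 2 falls at 240 min among 7 tested, with a median of 0.25. Over all tested genes, 20.6% were called higher and 20.4% lower. HBP1, a transcriptional repressor of the HMG-box family, fell from 53.82 and 60.11 CPM at 0 min to 14.83 and 15.77 CPM at 240 min, and lay between 55.29 and 61.16 CPM at 5, 10 and 30 min. Its log2 fold change at 240 min was -1.91 (SE 0.073, adjusted p = 7.26e-13, edgeR), a larger fall than that of TXNIP or ARRDC3 in these libraries. GPD1, which makes glycerol 3-phosphate from a glycolytic intermediate, rose from 24.54 and 23.33 CPM to 42.74 and 42.59 CPM (0.84, SE 0.076, adjusted p = 7.27e-08, edgeR). The other fall was G6PC, the catalytic subunit of glucose 6-phosphatase, at -2.07 (SE 0.21, adjusted p = 2.21e-07, edgeR). With ERCC scaling HBP1, GPD1 and G6PC were still called, at -2.02, 0.72 and -2.17. PFKFB3, which raises glycolysis through fructose 2,6-bisphosphate, was called at 0.80 (SE 0.20) from a mean of 1.724 CPM, HK2, a hexokinase, at 0.25 (SE 0.056), and KLF10 at 0.26 (SE 0.074). These 3 calls were lost with ERCC scaling. PFKFB3 and HK2 also lost theirs without 0 min replicate 2 (0.75 and 0.17), and KLF10 without 0 min replicate 1 (0.18) or 240 min replicate 1 (0.22). PKLR, the liver pyruvate kinase and a classic ChREBP target, was at -0.062 (SE 0.11, adjusted p = 0.682, edgeR).

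2 of the members have an antisense RNA, and the counting used strand, so that reads of the partners were separated. ARRDC3-AS1 was covered by only 16 to 40 counts per library, with 0.8352 and 0.6960 CPM at 0 min and 1.599 and 1.420 CPM at 240 min. Its log2 fold change was 1.02 (SE 0.30, adjusted p = 0.00963, edgeR), opposite in sign to that of ARRDC3, and it was not called without 0 min replicate 2 (0.86), without 240 min replicate 1 (0.92) or with ERCC scaling (0.90). ARRDC1-AS1 was at -0.20 (SE 0.14, adjusted p = 0.277, edgeR) with overlapping groups.

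**Figure D5:**
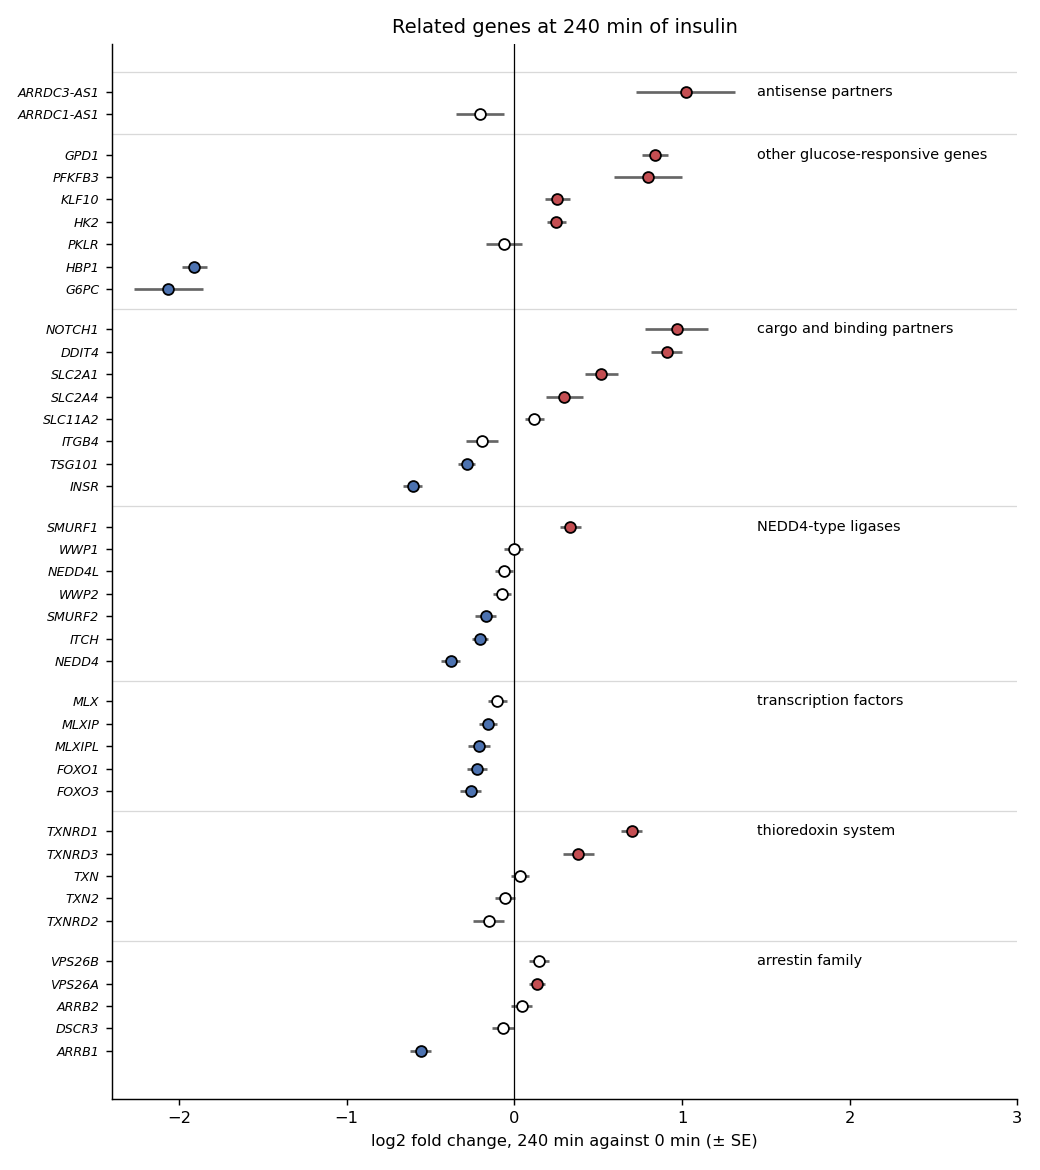
Log2 fold change at 240 min against 0 min, ± SE, of the 39 tested related genes by list, with red points for called higher, blue for called lower and open points for not called. HBP1 is at -1.91, TXNRD1 at 0.70, TXN at 0.033 and ARRB1 at -0.56.

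The genes whose changes over the 4 later times were closest to those of each member were found among the 10383 genes that averaged 5 CPM or more, by the root mean square difference of the 4 log2 fold changes. TXNIP was nearest to OTUD1 (0.0347), METTL15 (0.0385) and RBMS2 (0.0471). ARRDC4 was nearest to C6orf132 (0.0298), TMEM216 (0.0345) and FOXQ1 (0.0355). For ARRDC3 the smallest differences were larger, with CPEB3 at 0.271, ZNF844 at 0.278 and PTCHD4 at 0.285. The measure was not scaled to the size of the changes, and ARRDC3 had the widest range of the family. These larger values therefore do not show a course of unusual shape. CPEB3 had log2 fold changes of 0.27, 0.19, 0.35 and -1.07, against 0.15, 0.64, 0.58 and -0.90 for ARRDC3. ARRDC1 was nearest to EXOSC7 (0.0159) and ARRDC2 to UCK1 (0.0250), whose changes were likewise small. All values in this search share the 0 min libraries.

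The IR ChIP-seq gave a readout that the choice of the members had not used. None of the 1971 peaks of its 1 library fell within 5 kb of the body of any of the 5 members. Of the 13852 tested genes, 2173 (15.7%) had such a peak, and at that share a set of 5 genes without a peak is common. The count was 0 of 5 also within 1 kb and within 20 kb, where 14.1% and 21.2% of tested genes had a peak. The nearest peak lay 68.1 kb from the start of ARRDC2, 182 kb from ARRDC1, 506 kb from TXNIP, 687 kb from ARRDC4 and 2240 kb from ARRDC3. With 5 genes and 1 library without a replicate, no test was made, and the depth behind the peaks is unknown. A gene without a listed peak is below the threshold at which the peaks were called, which does not show that IR was absent there.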

How the data were processed

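RNA-seq and IR ChIP-seq of HepG2 cells were taken as deposited. Per the study's methods the authors trimmed single-end reads with Trim Galore 0.6.4, aligned them to hg19 with STAR 2.6.1d, marked duplicates and counted them per gene with featureCounts 1.6.4 on the reverse strand, and the deposited values are raw counts. The authors also deposited gene abundances of StringTie in TPM. For ChIP-seq the authors used BWA 0.7.17-r1188 and MACS2 2.2.7.1 and deposited a peak table annotated by HOMER with a score per peak. In the labels the protocol texts of the RNA libraries name DNA extraction and those of the ChIP libraries name an RNA kit, so times and kinds were taken from titles and files. The input has no file used here.

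Counts of 13852 genes were fitted with edgeR 4.0.16 in R 4.3.3 (TMM, filterByExpr by time, quasi-likelihood test, 10 libraries in 1 model), with Benjamini-Hochberg adjustment over all tested genes and calls at an adjusted p under 0.05. The 92 ERCC rows without a gene name, 1.59% to 2.36% of counts, stayed out of library sizes. Standard errors come from the fold change and its F statistic. The fit was tested on simulated data. Replicates differed beyond sampling noise (chi-square per degree of freedom 2.86 to 6.47), so none was merged.

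The members, the 7 lists and the naming rule were chosen with earlier results of these data known. Named were the members, every listed gene called at any time and the largest and smallest others, and the 3 genes nearest to each member. The alternatives were DESeq2 1.42.0, limma 3.58.1 on log2(TPM + 1), with a smaller pseudocount of 0.1 or a minimum mean TPM of 1, RLE normalization, ERCC scaling, other filters, only the times compared, a replicate block and each library left out. Promoter windows are from RefSeq, matched to hg19, and exons are from GENCODE. Protein sequences were not analysed here. Python 3.11.15, pandas 2.3.3 and matplotlib 3.10.9 were used for regions and figures.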

Additional observations from a re-analysis of the deposited data

How the results depend on the processing

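Of the members' log2 fold changes under the alternatives, 388 moved by less than the spread between replicates and 12 by more. All 12 were among the 20 values with ERCC scaling, which kept 8 within the spread. The fits with 1 library left out could hardly move by more. Dropping 1 of 2 replicates shifts a mean by less than their SD, so these fits say little here. Over all tested genes, ERCC scaling called 0 higher and 20 lower at 10 min. Limma on log2(TPM + 1), and limma above a minimum mean TPM of 1, each called 0 higher and 1 lower there. At 30 min ERCC scaling called 2 higher and 2 lower, and the fit without a filter on low counts 84 and 76 of 20553. The number of members called at 10 min was 0 in place of 1 with ERCC scaling and with these 2 limma fits. At 30 min it was 0 with ERCC scaling and 2 without a filter on low counts, and it ran from 1 to 2 as libraries were left out, with 2 (ARRDC4 added) without 30 min replicate 1. At 240 min it was 3 in every alternative except ERCC scaling, which gave 2, without ARRDC4. Of related genes at 30 min, 0 in place of 1 were called with ERCC scaling and in each of the 3 limma fits, 2 without a filter, and 0 to 1 as libraries were left out, with 0 without 0 min replicate 1 or without 30 min replicate 2. At 240 min 8 in place of 25 were called with ERCC scaling, and 16 to 26 as libraries were left out, with 16 without 0 min replicate 2. Why these counts moved was not tested. The labels number the replicates 1 and 2 at each time but do not say that a number marks a shared culture or day, and the replicate differences correlated between times at -0.189 to 0.162. With a replicate block, 1 member was called at 10 min, 1 at 30 min and 3 at 240 min, and 26 related genes at 240 min. Peaks at the members stayed at 0 in the 3 alternatives. With 2 libraries per time, the spread of each time rests on the estimate shared by all 10, and the lowest counts were those of ARRDC2, at 114 to 279 per library.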
